A study of Homo sapiens with 24 samples.

Results

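Expression of the MHC class I heavy-chain genes HLA-B, HLA-C, HLA-E and HLA-F, their light chain B2M, the peptide transporter genes TAP1 and TAP2 and the immunoproteasome genes PSMB8 and PSMB9 was measured in prostate cell lines on Illumina bead arrays. The probes were all those whose annotation gives 1 of these symbols and no other, which yielded 17 probes of 9 genes, of 48803 probes and 18852 named genes on the array. The 4 groups were LNCaP with HIP1, LNCaP with empty vector, PNT1a with HIP1 and PNT1a with empty vector, with 6 arrays each. LNCaP is a prostate cancer line that was transfected transiently and taken on day 4. PNT1a is an immortalised line of prostate epithelium whose construct was stable, and both its cultures were kept in 0.8 mg/ml of G418, the drug that selects for the construct. The labels do not say whether a stable culture was a clone or a pool. The series text calls the 6 arrays of a group biological replicates. HIP1 encodes an endocytic adaptor protein that binds clathrin, and the study asked how its overexpression changes gene expression in each line.

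Class I molecules present peptides from inside the cell to CD8 T cells. The proteasome cuts proteins into peptides, the TAP1-TAP2 transporter carries them into the endoplasmic reticulum, and there they are loaded onto a heavy chain paired with B2M, beta-2-microglobulin. PSMB8 and PSMB9 encode the catalytic subunits that interferon gamma brings into the immunoproteasome in place of the standard ones. Interferons raise most genes of this pathway, and loss of class I expression is a known feature of many prostate cancers.

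All values are deposited log2 intensities. A signal was taken as above background when it exceeded 6.97, set at 3 SDs above the commonest value on the arrays (6.48), with the SD taken from the lower flank. Between 12110 and 12118 probes of an array lay above that level, and each array had a median of 6.56. The only named HIP1 probe, ILMN_1701403, averaged 7.29 ± 0.15 on the LNCaP arrays labelled HIP1 and 7.40 ± 0.16 on LNCaP vector arrays (mean ± SD of 6, limma adjusted p = 0.451). In PNT1a it averaged 7.79 ± 0.35 on arrays labelled HIP1 and 7.69 ± 0.21 on vector arrays (limma adjusted p = 0.703). No source places this probe inside or outside the transfected sequence. It therefore cannot check the labels, and arrays are described as HIP1-labelled or vector throughout. The PNT1a arrays numbered 6 stood apart from their groups, with a mean correlation over probes of 0.919 (HIP1-labelled) and 0.942 (vector) with the other arrays of the group, against 0.973 to 0.982 for the rest of the PNT1a arrays and 0.990 to 0.994 for LNCaP arrays. Differences of class I and related genes in PNT1a, and the differences of effects, are therefore also given without both arrays. Of the 5 measured luminal markers, KLK2, KLK3 and TMPRSS2 lay above background in both LNCaP groups and in neither PNT1a group, while KRT8 and KRT18 did so in all 4 groups. KRT8 was lower in LNCaP vector than in PNT1a vector arrays (-1.56). KRT18 was called higher in LNCaP in that comparison, by 0.47 to 0.65 in the 12 fits that left out 1 array. With HIP1, KLK2 (0.45) and TMPRSS2 (0.56) were called higher in LNCaP, and KRT8 was called lower in PNT1a (-0.78, and -0.90 without both arrays 6), a call lost in 6 of 12 fits that left out 1 array. KRT18, the other luminal marker tested in PNT1a, was not called with all arrays and was called higher without both arrays 6. The part of these marker differences in the class I results was not tested. Of the 3 measured basal markers only KRT15 lay above background, in PNT1a HIP1-labelled arrays (7.41 ± 0.21, against 6.66 ± 0.18 in PNT1a vector arrays). Few markers of other lineages lay above background. In PNT1a they were CD14 of 8 leukocyte markers, and COL1A1 and PDGFRB of 5 fibroblast markers. In LNCaP only VWF of 3 endothelial markers did so. LNCaP vector minus PNT1a vector was -3.13 to -2.68 for CD14 and -3.35 to -3.16 for PDGFRB in the 12 fits that left out 1 array. It was -1.12 to -0.97 for COL1A1 and 2.01 to 2.11 for VWF.

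Of the 9 genes, 8 lie in the major histocompatibility region of chromosome 6, within 3.14 Mb (positions 29723434 to 32859851 of GRCh38.p14), and B2M lies on chromosome 15 (44711517 to 44718145). TAP2, PSMB8, TAP1 and PSMB9 follow each other there, and the starts of TAP1 and PSMB9, on opposite strands, are 488 bases apart. RefSeq promoter windows (250 bases before to 50 after the annotated start, GRCh38.p14) were found for 8 of the 9 genes, HLA-E being the exception. The 4 windows printed here belong to HLA-B and TAP2, which among these genes gave the largest called HIP1 differences in LNCaP and in PNT1a, and to TAP1 and B2M, which share motifs with them. Capitals mark matches, on either strand, to an interferon-stimulated response element (GAAA, any 2 bases, GAAA), to a shorter interferon regulatory factor motif (GAANNGAAA), to an NF-kappaB-like motif (GGG, any 2 bases, TT, any base, CC) or to the motif bound by STAT dimers (TTCNNNGAA). The interferon motifs can overlap each other, and adjoining matches then read as a single run of capitals.
HLA-B, chr6:31357130-31357429, minus strand: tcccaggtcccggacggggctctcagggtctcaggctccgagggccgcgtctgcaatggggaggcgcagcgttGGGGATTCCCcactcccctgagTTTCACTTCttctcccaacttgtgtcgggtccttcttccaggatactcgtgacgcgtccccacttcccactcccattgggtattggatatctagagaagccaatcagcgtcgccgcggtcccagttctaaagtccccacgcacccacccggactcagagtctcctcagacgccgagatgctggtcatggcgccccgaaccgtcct
TAP2, chr6:32838690-32838989, minus strand: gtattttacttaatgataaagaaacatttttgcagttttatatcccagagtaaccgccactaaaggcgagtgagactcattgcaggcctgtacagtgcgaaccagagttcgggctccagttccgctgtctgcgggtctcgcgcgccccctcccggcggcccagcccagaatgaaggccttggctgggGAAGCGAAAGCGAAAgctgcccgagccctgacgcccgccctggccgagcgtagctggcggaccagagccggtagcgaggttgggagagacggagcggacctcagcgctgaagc
TAP1, chr6:32853655-32853954, minus strand: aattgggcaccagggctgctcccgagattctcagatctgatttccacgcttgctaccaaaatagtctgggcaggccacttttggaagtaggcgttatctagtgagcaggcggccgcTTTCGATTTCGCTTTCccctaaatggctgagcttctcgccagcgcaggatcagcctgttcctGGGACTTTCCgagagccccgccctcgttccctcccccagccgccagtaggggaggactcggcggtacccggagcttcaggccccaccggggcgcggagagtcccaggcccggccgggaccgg
B2M, chr15:44711267-44711566, plus strand: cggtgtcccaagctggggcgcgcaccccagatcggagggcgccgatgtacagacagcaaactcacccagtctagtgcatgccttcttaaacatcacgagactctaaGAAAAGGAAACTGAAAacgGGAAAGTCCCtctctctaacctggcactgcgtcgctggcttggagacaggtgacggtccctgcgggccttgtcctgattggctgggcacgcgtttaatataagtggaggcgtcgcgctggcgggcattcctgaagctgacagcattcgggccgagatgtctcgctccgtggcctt
The HLA-B window held TTTCACTTC, the shorter interferon motif read on the other strand, starting 155 bases before the start, and GGGGATTCCC 177 bases before it. TAP2 held both interferon motifs, 63 and 58 bases before its start. TAP1 and B2M each held a pair of response elements and an NF-kappaB-like match. Over all annotated windows of a gene, the response element was found in 5 of the 8 genes (B2M, HLA-F, PSMB8, TAP1 and TAP2). That is 5 of their 10 windows, against 3.574% of 35116 windows in the RefSeq table. The shorter motif was found in 4 genes (HLA-B, HLA-C, PSMB8 and TAP2) and 4 of the 10 windows, against 7.663%. The NF-kappaB-like motif was found in 3 genes (B2M, HLA-B and TAP1) and 3 of the 10 windows, against 5.678%. The STAT dimer motif was found in 2 genes (PSMB8 and TAP1) and 2 of the 10 windows, against 7.657%. The TAP1 match to the STAT dimer motif lies in another annotated window of that gene, and the 4 printed windows hold no match to it. These matches describe the letters of the windows, and no binding was measured.

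Not every probe carried a signal. The HLA-C probe ILMN_2150787 lay above background on 0 of 24 arrays and the TAP2 probe ILMN_1759250 on 1 LNCaP and 1 PNT1a array, so HLA-C and TAP2 were each read from their other probe. In LNCaP the 4 PSMB8 probes, the 2 PSMB9 probes and the HLA-F probe ILMN_1762861 lay above background on 0 of 12 arrays. The PSMB8 probe ILMN_2284794 reached it on 8 of 12 PNT1a arrays. HLA genes share long stretches of sequence and vary between people, and the fit of each probe to the alleles of these lines was not tested, so a signal may include other class I genes. In such bulk samples fewer cells that express a gene and less RNA per cell cannot be told apart.

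**Figure D1:**
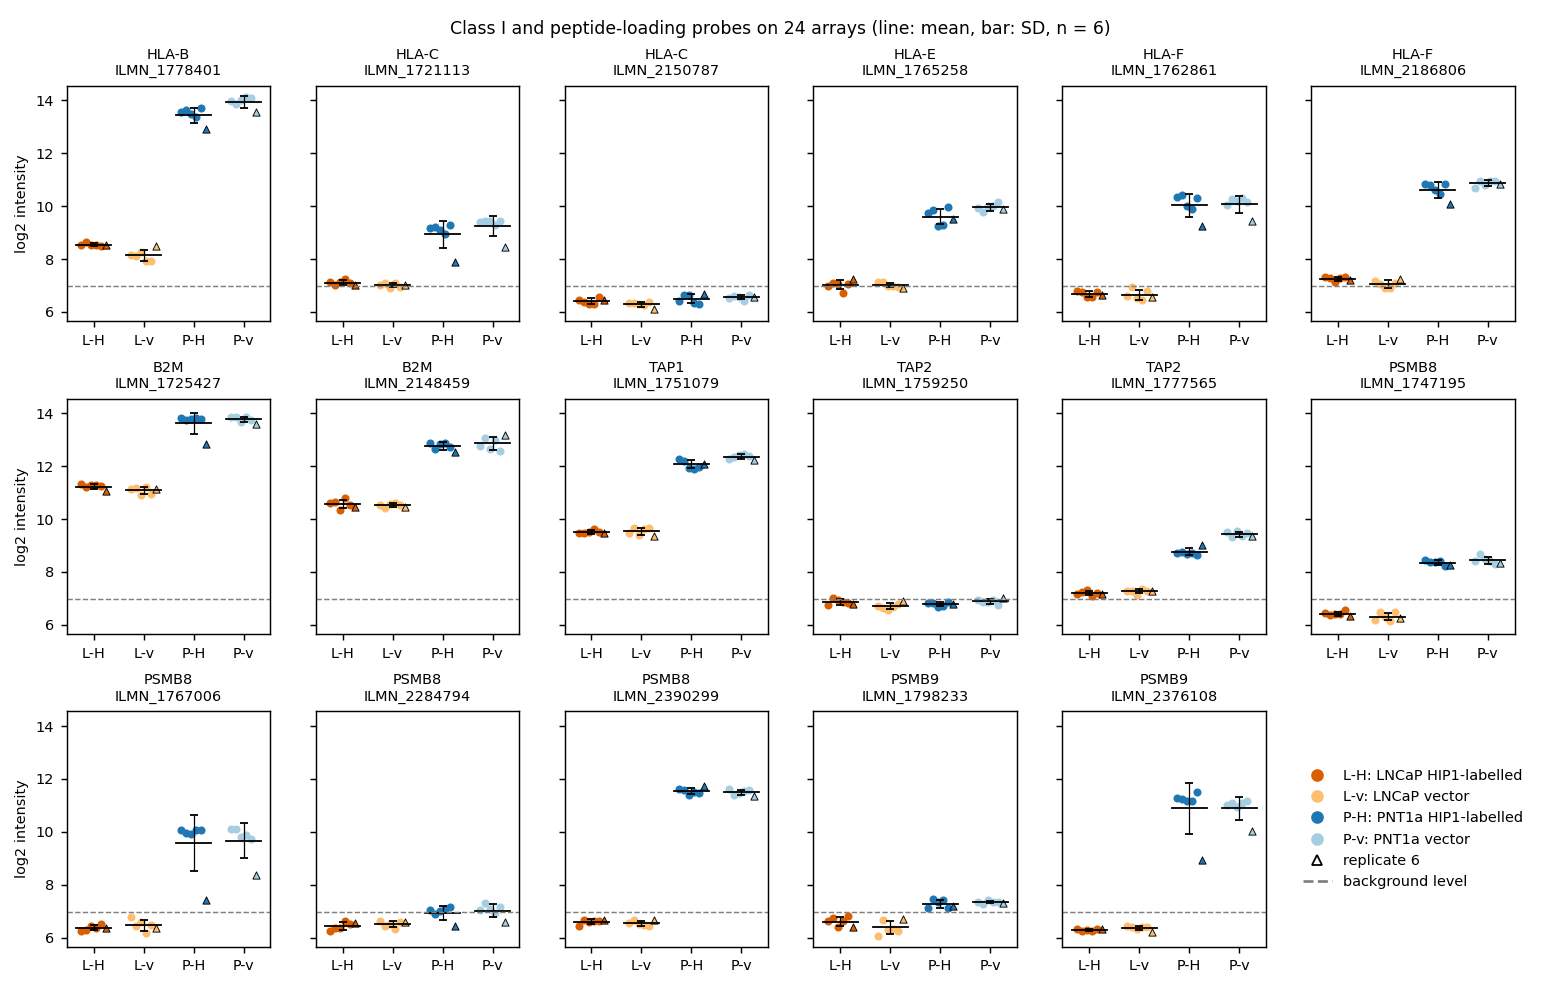
Log2 intensity of the 17 probes in LNCaP HIP1-labelled (L-H), LNCaP vector (L-v), PNT1a HIP1-labelled (P-H) and PNT1a vector (P-v) arrays. Points are arrays, triangles the arrays numbered 6, lines means, bars SDs (n = 6), and the dashed line is the background level of 6.97. HLA-B sits between 7.92 and 8.65 on LNCaP arrays and between 12.91 and 14.12 on PNT1a arrays.

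Class I genes were far lower in LNCaP than in PNT1a when the vector arrays of the lines were set side by side. HLA-B, a classical heavy chain, differed 55.4-fold, and heavy chains, light chain and transporter all lay lower. The immunoproteasome genes PSMB8 and PSMB9 gave no signal above background in LNCaP. Line, stable or transient vector and drug selection go together in this comparison and cannot be told apart. Of the 12824 probes tested (above background on at least 6 of the 12 arrays), 76.2% were called at a limma adjusted p under 0.05, with 40.1% called higher and 36.1% called lower in LNCaP, so a call by itself says little here and the sizes are the description. The median difference over all tested probes was 0.04.

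Among the heavy chains, HLA-B (ILMN_1778401) ranged from 7.92 to 8.49 with a median of 8.13 on LNCaP vector arrays, against 13.55 to 14.12 with a median of 13.99 on PNT1a vector arrays. The difference was -5.79 (95% interval -6.03 to -5.55, limma adjusted p = 7.64e-16, exact permutation p = 0.00216, which is the smallest that 924 splits can give in a two-sided test). HLA-C (ILMN_1721113), the classical heavy chain that is also a main ligand of natural killer cell receptors, ranged from 6.90 to 7.09 (median 7.03) in LNCaP vector arrays, at the edge of background, against 8.46 to 9.44 (median 9.42) in PNT1a vector arrays. HLA-C was thus 4.70-fold lower in LNCaP (log2 difference -2.23). HLA-E, which presents leader peptides of other class I chains to natural killer cells, ranged from 6.92 to 7.14 (median 6.98) in LNCaP vector arrays and from 9.78 to 10.17 (median 9.95) in PNT1a vector arrays, a difference of -2.94. HLA-F, a non-classical heavy chain, ranged from 6.89 to 7.24 on probe ILMN_2186806 in LNCaP vector arrays and from 10.68 to 10.97 in PNT1a vector arrays, a difference of -3.80. The other HLA-F probe (ILMN_1762861) was below background in LNCaP vector arrays (6.65 ± 0.19, against 10.07 ± 0.32 in PNT1a vector arrays), and its signal was at least 8.58-fold lower.

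B2M, the light chain that pairs with class I heavy chains, remained well above background in LNCaP. Its probe ILMN_1725427 ranged from 10.93 to 11.23 (median 11.12) in LNCaP vector arrays and from 13.61 to 13.86 (median 13.79) in PNT1a vector arrays, 6.41-fold lower in LNCaP. The probe ILMN_2148459 gave 10.52 ± 0.08 in LNCaP vector arrays and 12.87 ± 0.24 in PNT1a vector arrays, 5.07-fold lower. Both B2M probes thus had the same direction and a like size.

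Both transporter subunits were measured above background in each line. TAP1 (ILMN_1751079) ranged from 9.37 to 9.67 (median 9.54) in LNCaP vector arrays, against 12.21 to 12.44 (median 12.38) in PNT1a vector arrays. The TAP1 difference was -2.82 (95% interval -2.98 to -2.66, 7.06-fold lower, limma adjusted p = 2.89e-14). TAP2 (ILMN_1777565) ranged from 7.13 to 7.35 (median 7.28) in LNCaP vector arrays and from 9.32 to 9.56 (median 9.42) in PNT1a vector arrays, a difference of -2.16.

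For the immunoproteasome subunits only bounds against the background level can be given. PSMB8 on probe ILMN_2390299 averaged 6.55 ± 0.09 in LNCaP vector arrays, below background, and 11.50 ± 0.10 in PNT1a vector arrays, so its signal was at least 23.1-fold lower. The PSMB8 probes ILMN_1767006 and ILMN_1747195 gave bounds of at least 6.52-fold and at least 2.77-fold lower. PSMB9 averaged 6.37 ± 0.08 on probe ILMN_2376108 in LNCaP vector arrays and 10.89 ± 0.43 in PNT1a vector arrays, at least 15.1-fold lower. The other PSMB9 probe (ILMN_1798233), dim in PNT1a too (7.35 ± 0.05), gave a bound of at least 1.30-fold.

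In total 14 of the 17 probes were tested between the lines, all 14 were called lower in LNCaP, and the 6 LNCaP vector arrays lay below all 6 PNT1a vector arrays for each of them (27.8% of all tested probes did so, 31.7% lay wholly the other way, and 59.5% had no overlap in all). For 6 of the 14 the LNCaP mean lay below background, so that these passed the filter through PNT1a alone and had to differ, and the count supports nothing by itself. The 8 probes with both means above background differed by -5.79 to -2.16. Among them, HLA-C (7.01), HLA-E (7.02) and HLA-F on ILMN_2186806 (7.06) had LNCaP vector means close to the level. Each of these lay above it on 4 of 6 LNCaP vector arrays, so background limits the sizes of their differences. Of the 3 untested probes, TAP2 ILMN_1759250 and PSMB8 ILMN_2284794 overlapped between the lines. HLA-C ILMN_2150787 did not overlap, but both its means lay below background (6.29 ± 0.09 in LNCaP vector and 6.55 ± 0.08 in PNT1a vector arrays).

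**Figure D2:**
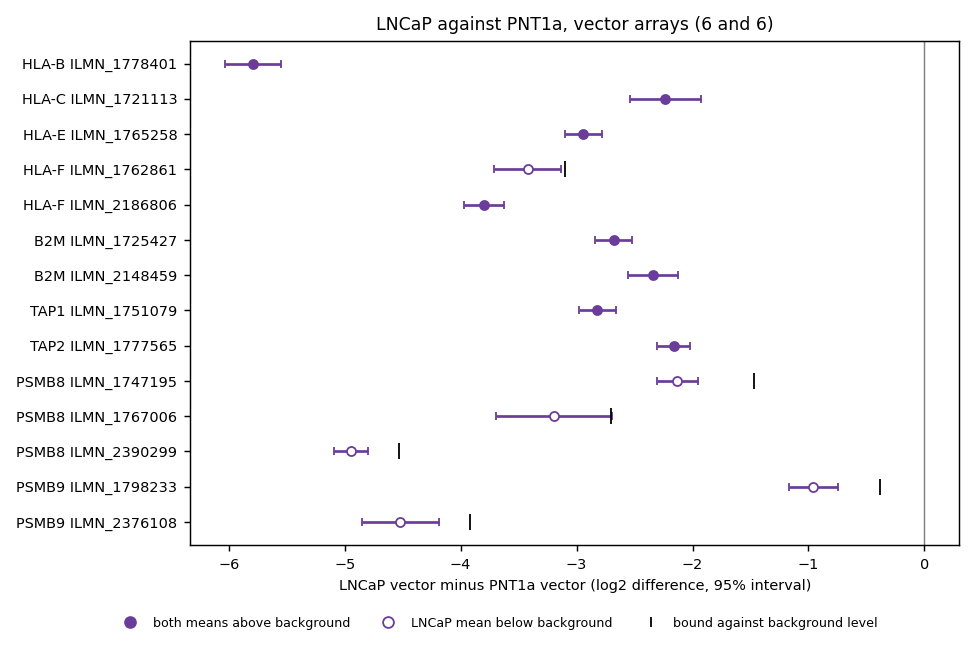
Log2 difference of LNCaP vector minus PNT1a vector arrays (6 and 6) for the 14 tested probes, with 95% intervals. Filled points have both means above background, open points are fitted values whose LNCaP mean lay below it, and the tick beside an open point is the bound; HLA-B lies farthest from 0, at -5.79.

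In LNCaP, HLA-B was higher on HIP1-labelled arrays, and no other class I or loading probe was called. HLA-B ranged from 8.48 to 8.65 (median 8.53) on LNCaP HIP1-labelled arrays, against 7.92 to 8.49 (median 8.13) on LNCaP vector arrays. The 5 highest HIP1-labelled arrays lay above every vector array, and the groups overlapped only where vector array 6, at 8.49, passed the lowest HIP1-labelled array, at 8.48. The rise was 0.40 on the log2 scale (95% interval 0.23 to 0.57, limma adjusted p = 0.00474, exact permutation p = 0.00433). It was called in all 12 fits that left out 1 array, and lost its call when all 24 arrays shared 1 fit (adjusted p = 0.0798). Over the whole table, 7.32% of 12017 tested probes were called in LNCaP, 3.15% higher and 4.18% lower. The groups did not overlap for 4.04% of them (1.5% higher and 2.54% lower), and for 0 of the 8 member probes tested. The HLA-B level of LNCaP HIP1-labelled arrays (8.54 ± 0.06) remained far below that of both PNT1a groups.

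The other 7 probes tested in LNCaP gave differences between -0.07 and 0.19. HLA-F on ILMN_2186806 ranged from 7.12 to 7.33 (median 7.28) on LNCaP HIP1-labelled arrays and from 6.89 to 7.24 (median 7.08) on LNCaP vector arrays. Its difference was 0.19 (95% interval 0.05 to 0.34), with a limma adjusted p of 0.0992 and an exact permutation p of 0.0173, and leaving out vector array 6 brought the adjusted p to 0.0445. B2M averaged 11.23 ± 0.09 on ILMN_1725427 in LNCaP HIP1-labelled arrays and 11.08 ± 0.12 in LNCaP vector arrays (difference 0.14, interval 0.00 to 0.29, adjusted p = 0.23), and ILMN_2148459 differed by 0.04. HLA-C differed by 0.09 (interval -0.04 to 0.22) and HLA-E by 0.01 (interval -0.15 to 0.17), both with means within 0.2 of the background level. TAP1 was 9.51 ± 0.06 on LNCaP HIP1-labelled arrays and 9.53 ± 0.14 on LNCaP vector arrays, which is -0.02 (interval -0.16 to 0.12). TAP2 differed by -0.07 (interval -0.20 to 0.06). PSMB8 and PSMB9 remained below background on every LNCaP HIP1-labelled array, with values of 6.24 to 6.81. Any change that left them below the level was not detectable.

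In PNT1a TAP2, HLA-B and TAP1 were lower on HIP1-labelled arrays than on vector arrays, so HLA-B was called in opposite directions in the lines. Of 15 probes tested, these 3 were called, all lower, against a background of 27.5% of 12234 tested probes called, 14.1% higher and 13.4% lower. The share of members called is thus close to that of the whole table. The median difference of the 15 probes was -0.11, beside 0.00 over all tested probes. Without both arrays 6, 5 of the 15 were called lower (HLA-B, HLA-C, HLA-E, TAP1 and TAP2) and PSMB9 on ILMN_2376108 was called higher. In that fit 45.1% of all tested probes were called, 23.3% higher and 21.8% lower, so 6 of 15 is again close to the share of the whole table.

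TAP2 showed the clearest separation of groups. On ILMN_1777565 it ranged from 8.66 to 9.02 (median 8.72) in PNT1a HIP1-labelled arrays, against 9.32 to 9.56 (median 9.42) in PNT1a vector arrays. All 6 HIP1-labelled arrays lay below all 6 vector arrays, as for 7.45% of tested probes (7.92% lay wholly higher, 15.4% in all without overlap), and array 6 was the highest of the HIP1-labelled ones. The fall was -0.68 (95% interval -0.85 to -0.50, 1.60-fold, limma adjusted p = 3.57e-05, exact permutation p = 0.00216). Without both arrays 6 it was -0.74 (adjusted p = 5.99e-07), and it was called in all 12 fits that left out 1 array. TAP1, the partner subunit, ranged from 11.91 to 12.27 (median 12.04) in PNT1a HIP1-labelled arrays and from 12.21 to 12.44 (median 12.38) in PNT1a vector arrays. Of the HIP1-labelled TAP1 values, 5 lay below every vector array and the highest, on array 1, overlapped them. The TAP1 fall was -0.29 (interval -0.47 to -0.10, limma adjusted p = 0.0229, exact permutation p = 0.00866), and -0.32 without both arrays 6. Its call rests on single arrays: it was lost when vector array 3 or 4, or HIP1-labelled array 3, 4 or 5, was left out, with an adjusted p of up to 0.0536.

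HLA-B ranged from 12.91 to 13.70 (median 13.51) in PNT1a HIP1-labelled arrays, against 13.55 to 14.12 (median 13.99) in PNT1a vector arrays. In each group array 6 was the lowest, and the groups overlapped through vector array 6. The fall was -0.50 (95% interval -0.80 to -0.20, 1.41-fold, limma adjusted p = 0.0158, exact permutation p = 0.00866), and -0.47 without both arrays 6 (adjusted p = 0.00027). It was called in all 12 fits that left out 1 array. HLA-E averaged 9.61 ± 0.30 in PNT1a HIP1-labelled arrays and 9.96 ± 0.13 in PNT1a vector arrays, a difference of -0.35 with a limma adjusted p of 0.055. Its HIP1-labelled values were uneven, with arrays 3 and 4 at 9.27 and 9.29 and arrays 1, 2 and 5 between 9.76 and 9.98. Without both arrays 6 the HLA-E difference was again -0.35, with an adjusted p of 0.0432. HLA-C ranged from 7.91 to 9.28 (median 9.14) in PNT1a HIP1-labelled arrays and from 8.46 to 9.44 (median 9.42) in PNT1a vector arrays. Array 6 was far below the rest in both groups, and the HLA-C difference was -0.31 (adjusted p = 0.375) with those arrays and -0.26 (adjusted p = 0.0113) without them.

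The other probes were not called in PNT1a with all 12 arrays. HLA-F differed by -0.04 on ILMN_1762861 (interval -0.47 to 0.39) and by -0.25 on ILMN_2186806 (interval -0.52 to 0.01, adjusted p = 0.154). Without both arrays 6 the HLA-F differences were -0.0056 and -0.16 (adjusted p = 0.168 on the second probe). B2M differed by -0.14 on ILMN_1725427 and by -0.11 on ILMN_2148459, and by -0.0047 and -0.0037 on these probes without both arrays 6. The 4 PSMB8 probes gave differences of -0.09 to 0.06, and of -0.09 to 0.09 without both arrays 6. For PSMB8 on ILMN_1767006 the interval was wide (-1.03 to 0.87), since array 6 read 7.44 in the HIP1-labelled group (9.91 to 10.09 on its other 5 arrays) and 8.38 in the vector group (9.73 to 10.13 on the other 5). PSMB9 on ILMN_2376108 differed by 0.00 (interval -0.80 to 0.80), with HIP1-labelled array 6 at 8.95 and vector array 6 at 10.02. Without both arrays this PSMB9 probe was 0.21 higher in PNT1a HIP1-labelled arrays (adjusted p = 0.0424), while the other PSMB9 probe (ILMN_1798233) differed by -0.05.

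**Figure D3:**
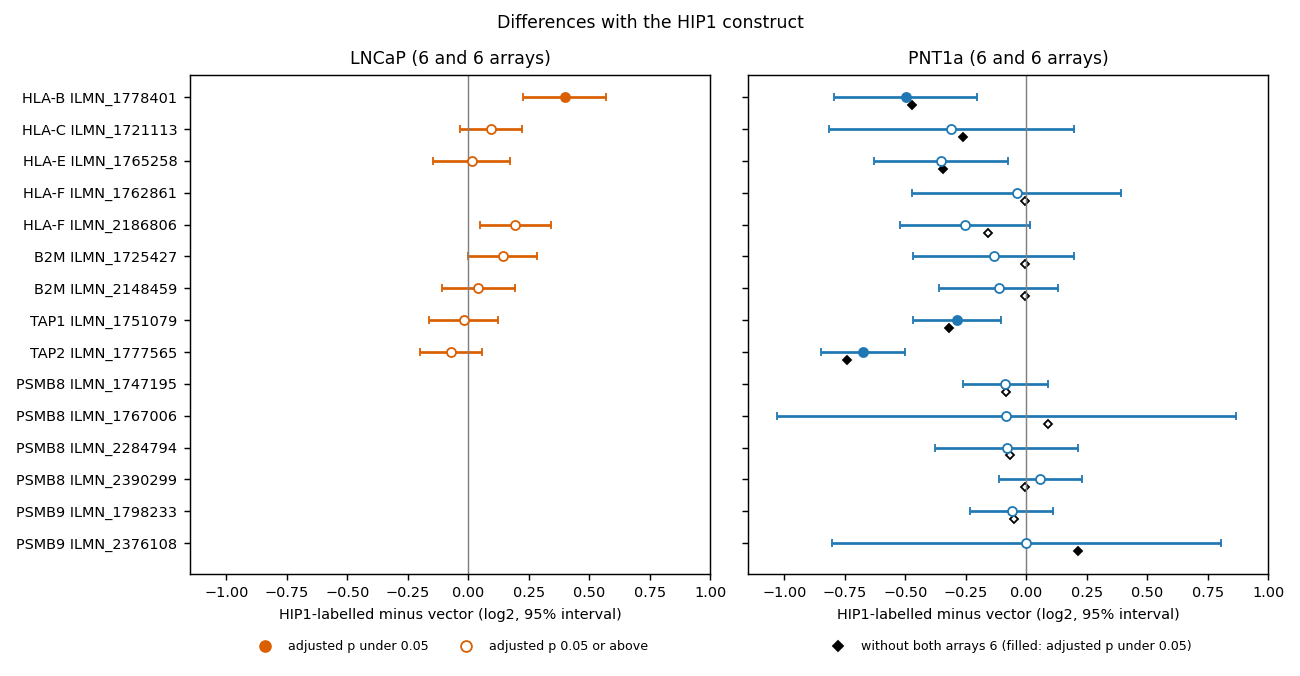
Log2 difference of HIP1-labelled minus vector arrays with 95% intervals, LNCaP on the left and PNT1a on the right (6 and 6 arrays each), filled where the adjusted p is under 0.05. Black diamonds give PNT1a without both arrays 6; HLA-B lies at 0.40 in LNCaP and at -0.50 in PNT1a, and TAP2 at -0.07 and -0.68.

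Probes of the same gene differed in how far they fell on the PNT1a arrays numbered 6. Both HLA-F probes were lowest on HIP1-labelled array 6, at -1.05 and -0.70 relative to the median of the other 5, and so were both B2M probes. On that array, PSMB8 was lowest on ILMN_1767006 (7.44) and on ILMN_2284794 (6.45) while ILMN_2390299 gave 11.74, the highest value of its group. PSMB9 read 8.95 on ILMN_2376108 of that array, against 11.15 to 11.52 on the other 5, while ILMN_1798233 lay within the range of its group at 7.21. B2M read 12.82 on ILMN_1725427, against 13.76 to 13.83 on the other 5, and 12.53 on ILMN_2148459. TAP1 (12.10) lay within the range of its group there.

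**Figure D4:**
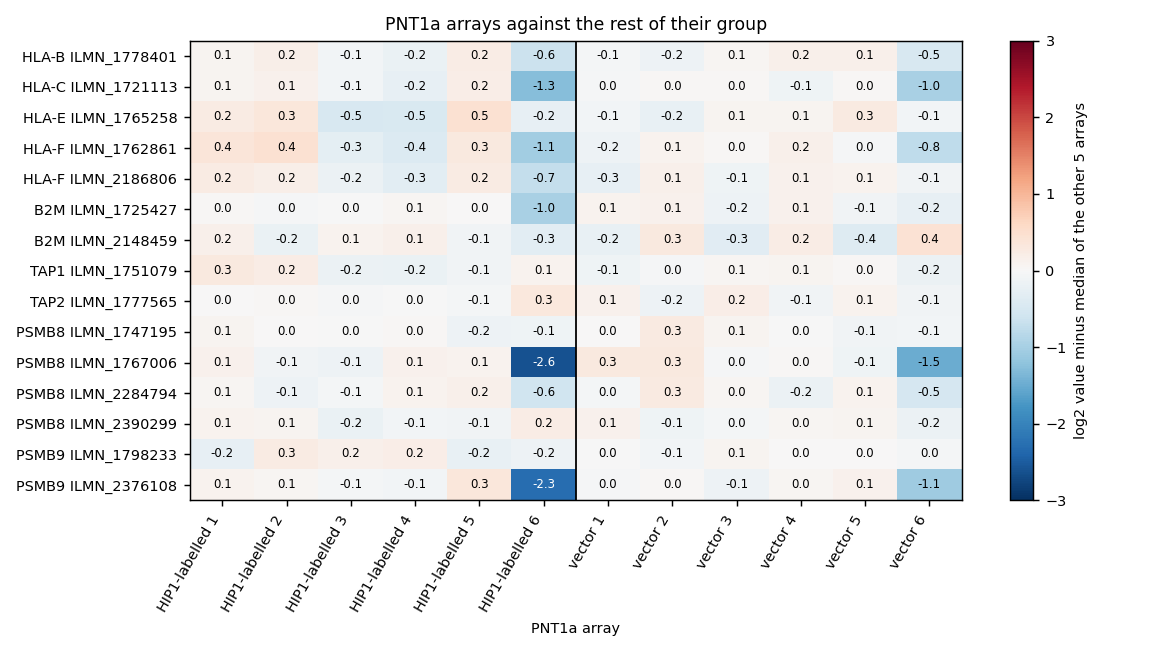
Each PNT1a array's log2 value minus the median of the other 5 arrays of its group, for the 15 probes tested in PNT1a, HIP1-labelled arrays left of vector arrays. Array 6 of both groups is low for PSMB8 ILMN_1767006 and PSMB9 ILMN_2376108, and for HLA-C, while the other PSMB8 and PSMB9 probes show smaller deviations.

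Within residual clusters of the PNT1a arrays (arrays grouped by what is left after removing group means), the called probes had 1 direction. HLA-B differed by -0.50 in the cluster of 2 HIP1-labelled and 2 vector arrays, by -0.45 in the cluster of 3 and 3, and by -0.64 between the arrays 6. TAP1 differed by -0.40, -0.27 and -0.12 in the same clusters, and TAP2 by -0.72, -0.76 and -0.35. In LNCaP, HLA-B differed by 0.37 in a cluster of 5 HIP1-labelled and 4 vector arrays and by 0.45 in the remaining 1 and 2. What these clusters stand for is not given in the labels.

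The HIP1-labelled effects of the lines were then compared directly, as the LNCaP effect minus the PNT1a effect over all 24 arrays. Line, transient or stable construct and drug selection go together here as well and cannot be told apart. Of the 13942 probes tested this way, 22% were called, 10.5% higher and 11.5% lower, and 3 of 15 member probes were called, all higher. For HLA-B the difference of effects was 0.90 (95% interval 0.56 to 1.24, limma adjusted p = 0.000231), since its signal rose in LNCaP (0.40) and fell in PNT1a (-0.50). For TAP2 it was 0.60 (interval 0.41 to 0.80, adjusted p = 2.63e-05), with effects of -0.07 in LNCaP and -0.68 in PNT1a. For HLA-F on ILMN_2186806 it was 0.45 (interval 0.15 to 0.74, adjusted p = 0.0249), although the effect of 0.19 in LNCaP and that of -0.25 in PNT1a were not called by themselves. These 3 calls held under all 31 alternatives tried, and without both arrays 6 the differences of effects were 0.87 for HLA-B, 0.67 for TAP2 and 0.35 for HLA-F. For TAP1 the difference of effects was 0.27 with an adjusted p of 0.0687, and 0.30 with an adjusted p of 0.029 without both arrays 6. It was called under 6 of 31 alternatives.

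Other genes of the class I pathway were read from a list of 13, of which 12 had a named probe, each gene by its brightest probe. Between the vector arrays 10 were tested, 6 were called lower in LNCaP and 2 higher, with a median of -0.82. Over all tested probes 36.1% were called lower and 40.1% higher. NLRC5 and HLA-G, among the 6, had LNCaP means below background and passed the filter through PNT1a alone. TAPBP, tapasin, which bridges the transporter and the heavy chain, averaged 8.50 ± 0.13 in LNCaP vector arrays and 11.02 ± 0.18 in PNT1a vector arrays (-2.51, limma adjusted p = 8.46e-13). The proteasome activator genes PSME1 (-1.77) and PSME2 (-1.41) and the chaperone gene CANX, calnexin (-0.89), were also lower. The peptide-trimming enzyme gene ERAP2 (1.70) and the third immunoproteasome subunit PSMB10 (0.43) were higher in LNCaP, and were named after their values were seen. ERAP2 ranged widely on PNT1a vector arrays (10.53 to 12.76) and overlapped LNCaP vector arrays (12.25 to 13.15). In the 12 fits that left out 1 array both calls held, at 1.59 to 2.04 for ERAP2 and 0.30 to 0.48 for PSMB10. The pathway was thus not lower throughout in LNCaP, and PSMB10 differed in direction from PSMB8 and PSMB9.

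With the HIP1 construct, 1 of the 7 class I pathway genes tested in LNCaP was called, beside 7.32% of all tested probes. This was ERAP2, lower at 12.31 ± 0.15 in LNCaP HIP1-labelled arrays, against 12.74 ± 0.34 in LNCaP vector arrays (-0.43, limma adjusted p = 0.0329). That ERAP2 call was lost in 8 of the 12 fits that left out 1 array. In PNT1a, 4 of 11 were called, 1 lower and 3 higher, and without both arrays 6 the counts were 2 lower and 4 higher. Over all tested probes 27.5% were called with all arrays and 45.1% without both arrays 6. PSME2 averaged 11.53 ± 0.12 in PNT1a HIP1-labelled arrays and 11.91 ± 0.14 in PNT1a vector arrays (-0.38, limma adjusted p = 0.0053). CANX was 0.36 higher, PSMB10 0.47 higher and TAPBPL, a tapasin-related peptide editor, 0.28 higher. Without both arrays 6 the differences were -0.38 for PSME2, 0.34 for CANX, 0.28 for PSMB10 and 0.26 for TAPBPL, so the PSMB10 value was over 1.5 times smaller. Leaving out 1 array ended the call of PSMB10 in 7 and that of TAPBPL in 9 of 12 fits. For PSMB10 the effects differed between lines (-0.74, limma adjusted p = 0.006, and -0.55 without both arrays 6). PNT1a HIP1-labelled arrays thus had lower TAP1, TAP2, HLA-B and PSME2 beside higher CANX, PSMB10 and TAPBPL. Of these calls, those of TAP1, PSMB10 and TAPBPL depended on single arrays.

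Among the class I-like molecules, 4 of the 5 tested between vector arrays were called, beside 76.2% of all tested probes. For each of the 4 the mean of 1 line lay below background. The other line thus carried it through the filter, and the count supports nothing by itself. MICB, a ligand of the NKG2D receptor of natural killer cells, was at least 4.92-fold lower in LNCaP, MICA, another such ligand, at least 2.19-fold lower and FCGRT, the neonatal Fc receptor chain that pairs with B2M, at least 6.38-fold lower. ULBP1, an NKG2D ligand as well, was at least 1.92-fold higher in LNCaP. With HIP1, ULBP1 was 0.28 higher in LNCaP (limma adjusted p = 0.0435), a call lost in 8 of 12 fits that left out 1 array. In PNT1a, MR1, which presents small metabolites to mucosal-associated T cells, averaged 8.62 ± 0.62 in HIP1-labelled arrays and 7.73 ± 0.28 in vector arrays (0.89, limma adjusted p = 0.0158, and 1.03 without both arrays 6). FCGRT was 0.32 higher in PNT1a HIP1-labelled arrays (0.26 without both arrays 6), and that call was lost in 4 of 12 such fits.

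The standard proteasome core gave a contrast to PSMB8 and PSMB9. All 13 measured core genes lay above background in every group, and between vector arrays 3 were called higher and 4 lower in LNCaP, with a median of 0.04. Of all tested probes 76.2% were called. Leaving out 1 array ended the call of PSMA6 in 10 and that of PSMB5 in 4 of 12 fits. Among the core genes, PSMB7 differed by -1.21, PSMB1 by -0.64, PSMB3 by -0.48 and PSMA1 by 0.69, so those that changed did so in both directions. PSMB7 encodes a standard catalytic subunit. With HIP1, 0 of 13 core genes were called in LNCaP, and in PNT1a PSMB4 (0.37) and PSMB6 (0.41), the standard subunit that PSMB9 replaces, were called higher. Over all tested probes 7.32% were called in LNCaP, and 14.1% were called higher in PNT1a. Without both arrays 6, PSMB4 differed by 0.31 and PSMB6 by 0.41, and 7 core genes were called higher and 0 lower, in a fit that called 23.3% of all tested probes higher.

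Class II genes were mostly dim. Between vector arrays, 3 of 10 were tested: HLA-DMA (1.24) and HLA-DMB (at least 3.38-fold), which together load peptides onto class II, were higher in LNCaP, and HLA-DPA1, a class II chain, was at least 2.52-fold lower. HLA-DMB in PNT1a and HLA-DPA1 in LNCaP had vector means below background, so the other line carried each through the filter. HLA-DMB was also called higher with HIP1 in LNCaP (0.23, limma adjusted p = 0.0357), a call lost in 7 of 12 fits that left out 1 array. In PNT1a 0 of 5 tested class II genes were called by limma with all arrays, and 2, both higher, without both arrays 6. Of all tested probes 27.5% and 45.1% were called in these fits.

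The interferon signalling list held 14 genes, of which 12 had a named probe. Between vector arrays 9 of the 12 were called lower in LNCaP and 1 higher, with a median of -0.97. Over all tested probes 36.1% were called lower and 40.1% higher. For JAK1 and IRF2 the LNCaP vector mean, and for JAK2 the PNT1a vector mean, lay below background, so the count supports nothing by itself. IRF9, the DNA-binding subunit of the interferon-stimulated factor complex, averaged 7.88 ± 0.16 in LNCaP vector arrays and 11.98 ± 0.13 in PNT1a vector arrays (-4.10, limma adjusted p = 1.86e-15). IRF1, an interferon-induced factor, differed by -2.22, IRF7, another, by -1.97, and IFNGR1, a chain of the interferon gamma receptor, by -1.28. JAK1, a kinase of the interferon receptors, was named after its values were seen: it was below background in LNCaP vector arrays (6.58 ± 0.10), against 8.41 ± 0.56 in PNT1a vector arrays, at least 2.72-fold lower. The receptor chain gene IFNGR2 was 0.26 higher with HIP1 in LNCaP (limma adjusted p = 0.0323), a call lost in 8 of 12 fits that left out 1 array.

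In PNT1a 2 of 11 interferon signalling genes were called, both lower, and without both arrays 6 the count was 2 lower and 3 higher. The shares of all tested probes called were 27.5% with all arrays and 45.1% without both arrays 6. IRF7 ranged from 8.03 to 8.97 in PNT1a HIP1-labelled arrays and from 10.10 to 10.50 in PNT1a vector arrays (-1.84, limma adjusted p = 5.59e-07, and -1.93 without both arrays 6). IRF9 ranged from 10.14 to 10.83 in PNT1a HIP1-labelled arrays and from 11.79 to 12.13 in PNT1a vector arrays (-1.48, limma adjusted p = 4.46e-07, and -1.56 without both arrays 6). The groups did not overlap for either gene (7.45% of all tested probes lay wholly lower, 15.4% in all had no overlap). The falls of IRF7 and IRF9 were larger than those of TAP2 (-0.68), HLA-B (-0.50) and TAP1 (-0.29) on the same arrays. The effects on IRF7 (1.81) and IRF9 (1.34) also differed between lines (LNCaP minus PNT1a, limma adjusted p = 4.92e-09 and 2.37e-08), and came to 1.90 and 1.42 without both arrays 6. IRF1 was 11.06 ± 0.16 in PNT1a HIP1-labelled arrays and 10.75 ± 0.22 in PNT1a vector arrays (0.31, limma adjusted p = 0.0566), and was called higher without both arrays 6 (0.27, adjusted p = 0.0103).

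**Figure D5:**
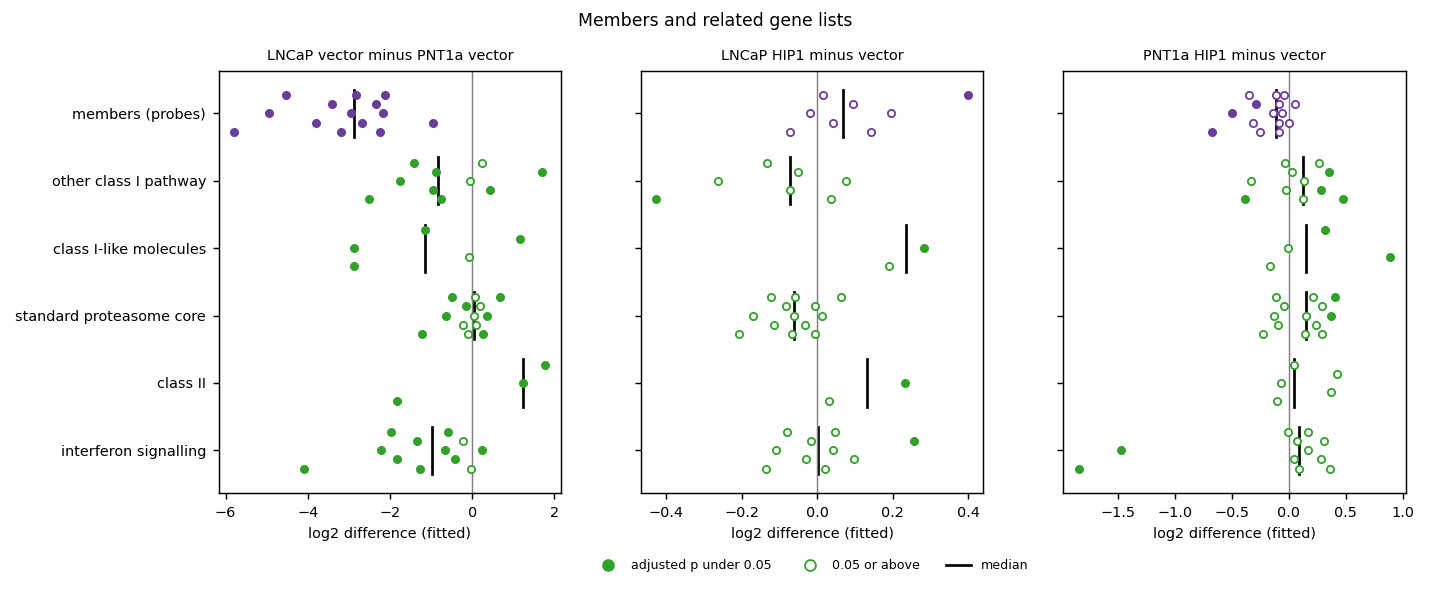
Fitted log2 differences of the member probes (purple) and of the genes of 5 related lists (green) in the comparison of lines and with HIP1 in each line, filled where the adjusted p is under 0.05, with the median of each list as a bar. The axes differ in scale; in PNT1a the points farthest to the left are IRF7 (-1.84) and IRF9 (-1.48).

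Genes whose pattern was most like that of the members were found from the mean z-score of the 8 probes tested in both lines. Over the 24 arrays the highest Pearson correlations were those of ANXA2 (0.997), HLA-H, a class I pseudogene (0.996), LGALS1 (0.996), LASP1 (0.996), UBE2L6 (0.996) and MYOF (0.996). These arrays fall into clusters by line, so the values restate the difference between lines. After removal of group means the highest were SMIM3 (0.936), EIF5 (0.928), MRPS24 (0.925), ARPC1B (0.899), PIPSL (0.895) and EIF3F (0.892), over the same 24 arrays, which include the PNT1a arrays numbered 6.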

How the data were processed

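RNA of 24 cultures (4 groups, 6 arrays each) was labelled as biotinylated cRNA and hybridised to Illumina arrays, per the labels. The authors deposited log2 intensities of 48803 probes, with 0 missing values, whose sorted columns differ by at most 0.0517, so the arrays already share a distribution. Software and normalization steps: not given in sources used here. A second deposited table holds raw intensity per bead type, per the file headers. Of its 24 value columns 18 match no label and were not used, and the other 6 served only to learn the scale: their log2 percentiles differed from the deposited ones by -0.117 to 0.183.

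Symbols came from the platform annotation (28098 probes with 1 symbol, 13 with several, 20692 with none), and gene IDs of 28059 probes matched the RefSeq table. Probes above 6.97 on at least 6 of 12 arrays were fitted with limma 3.58.1 in R 4.3.3, each line apart, the vector arrays of both lines together, and the difference of effects over all 24 arrays. Benjamini-Hochberg adjustment ran over all tested probes, with calls at 0.05, two-sided. Single probes were also tested by exact permutation over 924 splits. Where a group mean lay below 6.97 it was replaced by that level and the fold is given as at least. The number of arrays limits the precision.

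The members and lists were chosen with earlier results of these data known. All member probes are named, and of each other list up to 4 called genes with the lowest adjusted p, by the brightest probe. Likeness names the 6 genes with the highest correlation. Replicate numbers were not treated as pairs: same-numbered arrays correlated at -0.237 to 0.704 after removal of group means, highest for the PNT1a arrays 6. Such correlations cannot tell whether same-numbered arrays were processed together. The alternatives were another grouping of arrays in the fit, no filter, median centring, an intensity trend, blocks, array weights and arrays left out.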

Additional observations from a re-analysis of the deposited data

Results flagged for a closer look

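Of 68 sets of 6 arrays (17 probes in 4 groups), 13 had an array whose gap to its nearest neighbour exceeded Dixon's 95% critical value, where chance gives about 1 in 20. In 10 of the 13 the array was a PNT1a array numbered 6. On HIP1-labelled array 6 the values were 7.91 for HLA-C ILMN_1721113, 12.82 for B2M ILMN_1725427, 7.44 for PSMB8 ILMN_1767006, 6.45 for PSMB8 ILMN_2284794 and 8.95 for PSMB9 ILMN_2376108, each the lowest of its group, and 9.02 for TAP2 ILMN_1777565, the highest. On PNT1a vector array 6 the lowest values were 8.46 for HLA-C ILMN_1721113, 9.45 for HLA-F ILMN_1762861, 8.38 for PSMB8 ILMN_1767006 and 10.02 for PSMB9 ILMN_2376108. In LNCaP the lowest values were 6.45 for PSMB8 ILMN_2390299 on HIP1-labelled array 1, and, on vector arrays, 6.10 for HLA-C ILMN_2150787 on array 6 and 7.13 for TAP2 ILMN_1777565 on array 3. The PSMB8 and HLA-C values among these LNCaP ones lay below background.

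For 3 member probes the difference of HIP1-labelled from vector arrays was called as unlike between the lines, and the rest were not called. Of all 13942 probes tested this way, 22% were called. The LNCaP effect minus the PNT1a effect (interaction term) was 0.90 for HLA-B ILMN_1778401, 0.45 for HLA-F ILMN_2186806 and 0.60 for TAP2 ILMN_1777565. Line, transient or stable construct and drug selection cannot be told apart in these values.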

How the results depend on the processing

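The calls of TAP2 and HLA-B in PNT1a, and those of HLA-B, TAP2 and HLA-F ILMN_2186806 for the difference of effects, held under every alternative tried. In PNT1a the count of called members was 5 with a replicate block, 6 with residual cluster as a block and 6 without both arrays 6, and all probes called numbered 5821 and 5522 under the last pair. For the difference of effects, the residual cluster block gave 4942 probes and 6 members, and leaving out both arrays 6 gave 4629 and 6. In LNCaP, 1 fit over all 24 arrays gave 235 probes and 0 members, and no filter gave 549 probes. In each line only HIP1-labelled array 6 correlated best with the vector array of its own number. The replicate block moved no count of all probes by over 1.5 times. Leaving out 1 array gave 2829 to 4688 probes and 2 to 4 members in PNT1a, 519 to 1193 and 1 to 2 in LNCaP (519, 583 and 585 without HIP1-labelled array 2, vector array 5 and vector array 2, and 2 members without vector array 6), 9505 to 10330 and 14 between lines, and 2781 to 4157 and 3 to 4 for the difference of effects.

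Over 1118 single-probe comparisons under the alternatives, 25 gained a call and 6 lost one, 5 of them TAP1 in PNT1a with 1 array left out and 1 HLA-B in LNCaP in the fit over all 24 arrays. Signs turned only for differences without a call. In PNT1a these were PSMB9 ILMN_2376108 (-0.000194 with median centring), PSMB8 ILMN_1767006 (0.088 without both arrays 6) and PSMB8 ILMN_2390299 (-0.0057 likewise). In LNCaP HLA-E gave -0.014 with the cluster block. For the difference of effects PSMB8 ILMN_2390299 gave -0.0073 with that block and PSMB8 ILMN_2284794 gave -0.0049 without both arrays 6. With 1 array left out, the PNT1a ranges that crossed 0 were -0.34 to 0.35 for PSMB8 ILMN_1767006, -0.17 to 0.017 for PSMB8 ILMN_2284794, -0.17 to 0.39 for PSMB9 ILMN_2376108, -0.16 to 0.12 for HLA-F ILMN_1762861 and -0.18 to 0.026 for B2M ILMN_1725427. In LNCaP they were -0.052 to 0.0094 for TAP1, -0.030 to 0.074 for HLA-E and -0.0072 to 0.085 for B2M ILMN_2148459. For the difference of effects they were -0.45 to 0.24 for PSMB8 ILMN_1767006, -0.091 to 0.094 for PSMB8 ILMN_2284794, -0.035 to 0.036 for PSMB8 ILMN_2390299, -0.45 to 0.11 for PSMB9 ILMN_2376108 and -0.088 to 0.20 for HLA-F ILMN_1762861. The cause of these shifts was not tested. Signals near or below 6.97 limit HLA-C, HLA-E, HLA-F, PSMB8 and PSMB9 in LNCaP.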
